A study of Solanum lycopersicum with 17 samples.

Results

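INO-RolB fruit was set against seeded wild-type tomato fruit to find out which transcripts differ in fruit of this transgenic line. The comparison rests on 6 of the 17 arrays in the study, 3 of INO-RolB fruit and 3 of wild-type fruit analysed with its seeds, and on 10038 of the 10209 probe sets of the table, those other than the manufacturer's controls (AFFX) and the reporter probe sets (RPTR). INO-RolB plants carry rolB, an Agrobacterium rhizogenes gene that alters auxin responses, under the promoter of INO (INNER NO OUTER), a gene active in the outer integument of the ovule. Every array was hybridized with RNA of 8 pooled fruits from 1 plant, and the labels speak of INO-RolB as a transgenic line without saying whether its plants come from 1 transformation event. The labels give no treatment, fruit age or ripening stage for either group. Each difference uses the arrays of the 2 groups compared, while standard errors and p-values measure the spread between plants pooled over all 17 arrays. Further values are given for DefH9-RolB, the same transgene under a promoter active in placenta and ovules (2 arrays), for INO-IaaM, a bacterial auxin synthesis gene under the same promoter as INO-RolB (3 arrays), and for wild-type fruit whose seeds had been taken out by hand (3 arrays).

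In tomato the ovary normally starts to grow into a fruit only after pollination and fertilization, and auxin and gibberellin from the young seeds take part in that start. Fruit that forms without fertilization is called parthenocarpic and is seedless or nearly so. Auxin acts by removing Aux/IAA repressor proteins from auxin response factors, and expression of auxin genes in the ovule or placenta is a known way to obtain such fruit.

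Levels are given as log2 RMA values, so a difference of 1 is 2-fold, and each difference is the INO-RolB mean minus the other group's mean with its standard error (SE). A probe set is called when its adjusted p in limma, corrected over all 10038 probe sets by the Benjamini-Hochberg method, lies under 0.05. The highest value that any reporter probe set reached on the 6 wild-type arrays, which carry no transgene, was 5.32. Values up to 5.32 are therefore called silent here, and a difference that reaches into that range is a lower limit. For folds given as "at least", silent values were set to 5.32 before the means were taken. Such a fold is a limit for the measured means alone. It leaves out the spread between arrays, which the SE of the difference gives, so smaller folds are not excluded. Replicate arrays of INO-RolB correlated at 0.990 to 0.991 over the tested probe sets. Of the fruit and ripening genes, 3 abundant ones lay at close levels in both groups, while others, given below, did not. These 3 therefore do not show that the groups match in ripening state. 2A11, an abundant fruit transcript, lay at 14.16, 14.20 and 14.20 in INO-RolB fruit and at 14.23, 14.21 and 14.16 in seeded wild-type fruit. E8, a ripening-related gene, lay at 13.69 to 13.80 in INO-RolB fruit and at 13.77 to 13.85 in seeded wild-type fruit. Psy1, the phytoene synthase of fruit carotenoid synthesis, lay at 13.87 to 13.94 in INO-RolB fruit and at 13.85 to 13.95 in seeded wild-type fruit.

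Several measures of the arrays moved with the groups, and beyond the fits that take each of the first 2 as a covariate their part in the results was not tested. The 5' minus 3' signal of control transcripts, a sign of RNA integrity, averaged -0.43 ± 0.02 in INO-RolB and -0.74 ± 0.15 in seeded wild type (SD, n = 3 each). The difference between the hybridization spikes BioC and BioB was 1.32 ± 0.01 in INO-RolB and 0.81 ± 0.03 in seeded wild type (SD, n = 3 each). In DefH9-RolB it was 1.30 ± 0.02 (SD, n = 2), against 0.77 ± 0.04 in INO-IaaM (SD, n = 3). Because this spike measure barely varied within a group, what goes with it and what goes with rolB cannot be told apart. The probe for 25S rRNA averaged 7.57 ± 0.46 in INO-RolB and 5.85 ± 0.30 in seeded wild type. In RNA from whole fruit, fewer cells of a type and less RNA per cell cannot be told apart.

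The deepest falls included genes of raffinose-type sugar metabolism, the glyoxylate cycle and flavonoid synthesis. The highest rises included genes of defence proteins, a vacuole aquaporin and a proline-rich protein of young fruit. Of the 10038 probe sets, 1198 were called higher in INO-RolB (11.9%) and 978 lower (9.74%), together 21.7%, and 3537 (35.2%) had an unadjusted p under 0.05. The falls were deeper than the rises were high. The median called fall was -0.76, a factor of 1.69, and the median called rise 0.57, a factor of 1.48. At least 2 on the log2 scale separated the group means at 24 called rises and 114 called falls. Without any test, the arrays of the groups did not overlap at 4149 probe sets (41.3%), with INO-RolB above at 2444 (24.3%) and below at 1705 (17%). Both means were silent at 233 called probe sets, which are counted but not read as changes. The counts moved with single arrays and with added covariates. With INO-RolB replicate 2 left out, 607 were called higher and 577 lower, with seeded wild-type replicate 1 left out 701 and 676, and with seeded wild-type replicate 3 left out 681 and 626. With the RNA integrity measure added to the model 336 were called higher and 370 lower, and with the spike measure added none was called by limma in either direction, with 728 at an unadjusted p under 0.05. These fits widened the median standard error 1.29-fold and 5.6-fold, and both measures differ between the groups, so the lower counts do not show which part goes with RNA integrity or the spikes.

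**Figure D1:**
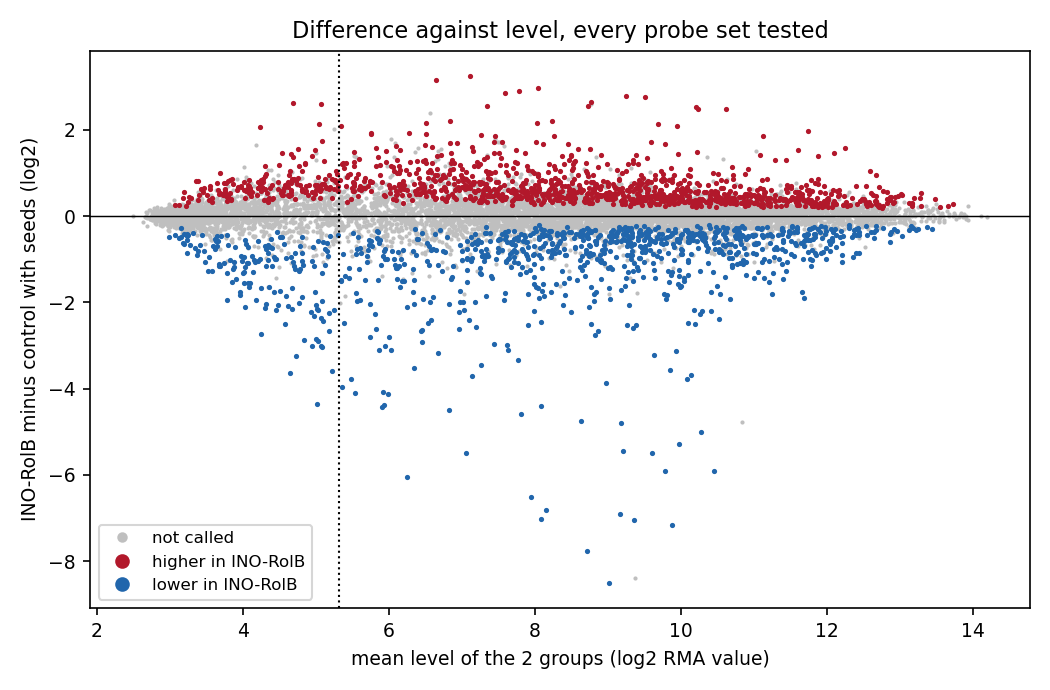
Difference between INO-RolB and seeded wild-type fruit (vertical axis, log2) against the mean level of both groups (horizontal axis, log2 RMA value) for each of the 10038 probe sets. Red points are called higher in INO-RolB, blue points called lower and grey points not called; the dotted line is the silent level of 5.32. Calls reach 3.24 upward and -8.49 downward.

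Only 909 of the tested probe sets carry a gene symbol, for 803 genes. Among these genes 90 were called higher in INO-RolB and 96 lower, and among the 9129 probe sets without a symbol 1089 were called higher and 877 lower. The deepest fall belonged to an unnamed probe set, LesAffx.22457.1.S1_at. Its values were 3.07, 3.02 and 8.22 in INO-RolB fruit, against 13.59, 12.44 and 13.76 in seeded wild-type fruit. INO-RolB replicate 3 thus stood far above the other two, which were silent, and still far below every seeded array, and the difference was -8.49 ± 2.63 (SE, adjusted p = 0.035). Les.5728.1.S1_at had 3.42, 3.90 and 7.20 in INO-RolB fruit, against 12.68, 12.28 and 12.82 in seeded wild-type fruit, with replicate 3 again apart (-7.75 ± 1.72, adjusted p = 0.00733). The largest unnamed rises were those of LesAffx.53517.1.S1_at, by 3.24 ± 0.74 (SE, adjusted p = 0.00844), and Les.3700.1.S1_at, by 3.15 ± 0.64 (adjusted p = 0.00475). LesAffx.53517.1.S1_at had 8.61, 8.33 and 9.26 in INO-RolB fruit, against 5.19, 6.04 and 5.24 in seeded wild-type fruit. For Les.3700.1.S1_at the values were 9.65, 7.47 and 7.52, against 4.81, 5.76 and 4.62, with INO-RolB replicate 1 apart. Seeded replicates 1 and 3 were silent for both probe sets.

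Raffinose-type sugars are stored in seeds and are built from galactinol, and isocitrate lyase is the entry enzyme of the glyoxylate cycle that turns stored lipid into sugar. All 3 measured genes of that list were called lower, beside 9.74% of all tested probe sets, with a median difference of -6.81 against 0.05 over all tested probe sets. GolS-1, a galactinol synthase, had 4.63, 3.82 and 5.78 in INO-RolB fruit, against 11.74, 11.01 and 11.92 in seeded wild-type fruit. The groups lay far apart and 2 of the 3 INO-RolB arrays were silent, so GolS-1 was at least 68.0-fold lower (difference -6.81 ± 1.07, adjusted p = 0.000966). AGAL, an alpha-galactosidase that releases galactose from such sugars, had 4.08, 3.55 and 6.10 in INO-RolB fruit, against 11.80, 10.86 and 12.12 in seeded wild-type fruit. Again 2 INO-RolB arrays were silent and replicate 3 was the highest of them, and AGAL was at least 64.6-fold lower (-7.02 ± 1.27, adjusted p = 0.00235; 0.0537 with the 5' minus 3' covariate). LOC544276, which the RefSeq annotation also names ICL (isocitrate lyase), had 5.84, 6.77 and 7.97 in INO-RolB fruit, against 12.48, 12.01 and 12.55 in seeded wild-type fruit. It was 44.9-fold lower, above the silent range on every array (-5.49 ± 0.63, adjusted p = 8.59e-05).

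Further deep falls came from several pathways. CHS2, a chalcone synthase at the entry to flavonoid synthesis, had 6.41, 7.43 and 6.47 in INO-RolB fruit, against 11.53, 11.09 and 12.10 in seeded wild-type fruit. The groups were well separated, and CHS2 was 28.0-fold lower (-4.81 ± 0.63, adjusted p = 0.000234). SNF4, a regulatory subunit of the SnRK1 kinase that senses the energy state of the cell, had 8.22, 7.75 and 8.23 in INO-RolB fruit, against 11.65, 11.50 and 11.73 in seeded wild-type fruit. Its replicates were tight in both groups and it was 11.8-fold lower (-3.56 ± 0.30, adjusted p = 1.02e-05). GLB2, a plant haemoglobin, had 5.44, 5.07 and 6.11 in INO-RolB fruit, against 8.72, 9.17 and 9.06 in seeded wild-type fruit. With 1 of those INO-RolB arrays silent, it was at least 10.3-fold lower (-3.45 ± 0.32, adjusted p = 1.92e-05). The gene listed as gad2 carries the RefSeq synonyms 16DOX and GAME11, names of a dioxygenase of steroidal glycoalkaloid synthesis. It had 8.02, 7.86 and 8.99 in INO-RolB fruit, against 12.07, 11.64 and 12.23 in seeded wild-type fruit, a fall of 12.9-fold (-3.69 ± 0.47, adjusted p = 0.000191).

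Both lipid transfer genes among the 12 largest falls, TSW12 and ltpg1, are neighbours in the RefSeq annotation of assembly SLM_r2.1. TSW12 had 6.64, 4.14 and 7.98 in INO-RolB fruit, against 11.37, 10.24 and 11.40 in seeded wild-type fruit. No array overlapped, but the INO-RolB arrays spread widely, and the call of TSW12 (-4.75 ± 1.29, adjusted p = 0.0199) was lost without seeded replicate 1 or 3 or INO-RolB replicate 2, with adjusted p up to 0.0935. The difference of ltpg1 was -3.22 ± 0.78 (adjusted p = 0.0115), lost without seeded replicate 3 or INO-RolB replicate 2 (up to 0.0522). THT1-3, a tyramine hydroxycinnamoyl transferase, was silent on all 3 INO-RolB arrays (3.92, 3.65 and 3.97), against 6.56, 5.89 and 7.10 in seeded wild-type fruit. It was at least 2.29-fold lower (-2.67 ± 0.33, adjusted p = 0.000167). THOM1 was likewise silent on the 3 INO-RolB arrays (4.36, 4.92 and 4.53), against 7.32, 7.39 and 7.49 in seeded wild-type fruit, at least 4.23-fold lower (adjusted p = 0.000168). Its second probe set lay at 3.43 in INO-RolB and 3.33 in seeded wild type, silent in both.

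**Figure D2:**
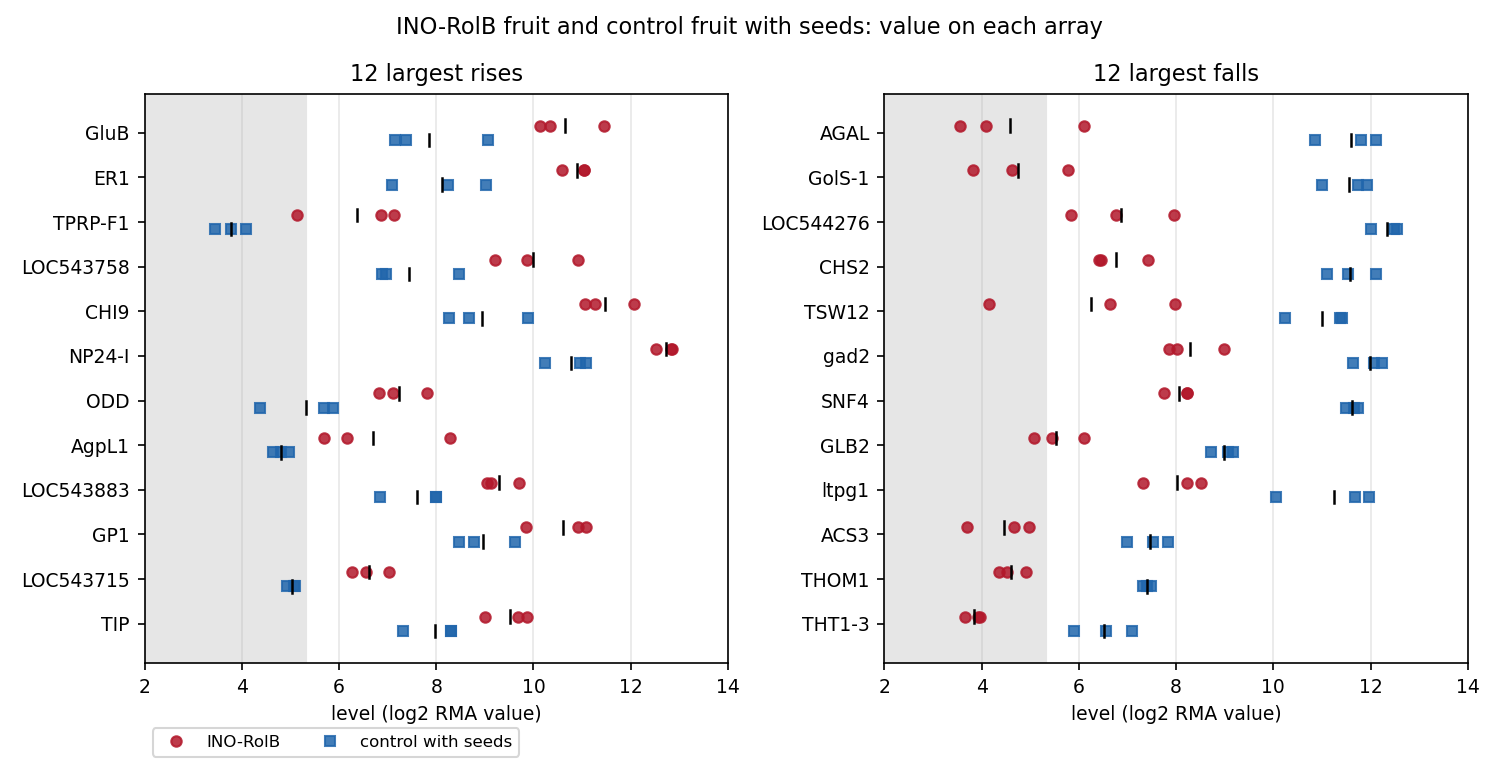
Level on each array (log2 RMA value) of the 12 largest rises (left) and the 12 largest falls (right) among named genes, red circles for INO-RolB and blue squares for seeded wild-type fruit, with black ticks at the means. Grey marks the silent range up to 5.32. The groups do not overlap for any of the 24, which the choice of genes requires.

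Defence proteins such as glucanases, chitinases and osmotins act on fungal cell walls or membranes, and proteinase inhibitors act on the digestive enzymes of insects. Of 17 genes on that list, 5 were called higher in INO-RolB and 1 lower, beside 11.9% and 9.74% of all tested probe sets, and the median difference was 0.34. NP24-I, an osmotin-like protein, had 12.82, 12.52 and 12.85 in INO-RolB fruit, against 10.96, 11.09 and 10.24 in seeded wild-type fruit. Every INO-RolB array lay well above every seeded array, a 3.91-fold rise (1.97 ± 0.29, adjusted p = 0.000574). ER1, an ethylene-responsive proteinase inhibitor whose gene stands next to NP24-I in the annotation, had 10.59, 11.04 and 11.04 in INO-RolB fruit, against 8.25, 9.03 and 7.10 in seeded wild-type fruit. The INO-RolB arrays were close together and the seeded ones spread, and ER1 was 6.81-fold higher (2.77 ± 0.54, adjusted p = 0.00372; 0.0633 with the 5' minus 3' covariate).

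GluB, a glucanase, had 10.35, 10.14 and 11.44 in INO-RolB fruit, against 7.37, 9.06 and 7.14 in seeded wild-type fruit. CHI9, a chitinase, had 11.26, 11.06 and 12.07 in INO-RolB fruit, against 8.68, 9.89 and 8.27 in seeded wild-type fruit. For both, seeded replicate 2 and INO-RolB replicate 3 stood highest within their groups. GluB was 6.88-fold higher (2.78 ± 0.72, adjusted p = 0.0155) and CHI9 5.75-fold (2.52 ± 0.71, adjusted p = 0.0227), and each call was lost without seeded replicate 1 or 3 or INO-RolB replicate 3, with adjusted p up to 0.0663 and 0.0885. The leucine aminopeptidase LAPA2 rose by 0.19 ± 0.06 (adjusted p = 0.0463; not called without 5 of the 6 arrays), and the chitinase CHI14 fell by 0.77 ± 0.20 (adjusted p = 0.0171; lost without any one of 3 arrays). With the 5' minus 3' covariate NP24-I alone of these 6 was called.

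The other large rises were of mixed function. TPRP-F1, a proline-rich protein of young fruit, had 7.12, 5.13 and 6.87 in INO-RolB fruit, against 4.09, 3.78 and 3.44 in seeded wild-type fruit. All seeded arrays and 1 INO-RolB array were silent, so the rise was at least 2.17-fold (2.60 ± 0.56, adjusted p = 0.00631). ODD, a dioxygenase that uses 2-oxoglutarate, had 6.83, 7.80 and 7.10 in INO-RolB fruit, against 5.87, 4.38 and 5.70 in seeded wild-type fruit, at least 3.06-fold higher (1.93 ± 0.42, adjusted p = 0.0063). TIP, an aquaporin of the vacuole membrane also named RB7, had 9.69, 9.01 and 9.86 in INO-RolB fruit, against 8.30, 7.32 and 8.30 in seeded wild-type fruit. The arrays did not overlap, and TIP was 2.92-fold higher (1.55 ± 0.38, adjusted p = 0.0129; 0.104 with the 5' minus 3' covariate). GP1, the beta subunit of a fruit polygalacturonase complex, rose by 1.67 ± 0.54 (adjusted p = 0.042), and omitting any one of 4 arrays ended the call. Of 3 genes with LOC numbers only, LOC543715 was at least 2.46-fold higher (1.58 ± 0.33, adjusted p = 0.00547) and kept its call without any array. LOC543758 rose by 2.56 ± 0.75 (adjusted p = 0.0281) and LOC543883 by 1.68 ± 0.42 (adjusted p = 0.0135), and they lost theirs without any one of 4 and 2 arrays.

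Auxin response runs through Aux/IAA repressors, which are themselves auxin-induced. Of 7 auxin genes none was called higher and 2 lower, 1 of them silent in both groups, beside 11.9% and 9.74% of all tested probe sets, and the list's median difference was 0.12. IAA3, an Aux/IAA gene, had 10.08, 9.96 and 10.37 in INO-RolB fruit, against 11.37, 11.23 and 11.19 in seeded wild-type fruit. Every INO-RolB array lay below every seeded one, and IAA3 was 2.18-fold lower (-1.13 ± 0.14, adjusted p = 0.0002; 0.0085 with the 5' minus 3' covariate). A second, weaker probe set of IAA3 gave a difference of 0.05 (adjusted p = 0.912) at levels of 5.69 in INO-RolB and 5.65 in seeded wild type, close to the silent range. IAA2, the other one called, was silent in both groups. IAA27 gave -0.55 ± 0.23 (adjusted p = 0.0997) and the auxin response factor ARF3 0.22 ± 0.10 (adjusted p = 0.141), and IAA7 and IAA16 were silent in both groups.

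Gibberellins promote fruit growth. Of 7 such genes, none was called higher and 3 lower, beside 11.9% and 9.74% of all tested probe sets. Differences on this list reached up to an uncalled rise of 0.87, and their median was -0.38. Among the 3 called lower were 20ox-2, a gibberellin 20-oxidase, and CPS, copalyl diphosphate synthase, which were silent in both groups. The mean of 20ox-2 was 3.09 in INO-RolB and 4.24 in seeded wild type (-1.15, adjusted p = 3.65e-05). That of CPS was 3.35 and 4.41 (-1.06, adjusted p = 0.00417). Both calls held without any single array and with the 5' minus 3' covariate, but levels in the silent range are not read as changes. RSI-1, a short peptide gene of the gibberellin-regulated GAST1 family, fell by 0.34 ± 0.11 (adjusted p = 0.0376; not called without 5 of the 6 arrays). GAI, a DELLA repressor of gibberellin response, lay at 5.78, 4.94 and 5.15 in INO-RolB fruit, against 5.58, 6.50 and 5.96 in seeded wild-type fruit (-0.73 ± 0.25, adjusted p = 0.0546).

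ACC synthase makes ACC, from which ACC oxidase makes ethylene, and the ethylene receptors hold the response off through the kinase CTR1. Of 47 ethylene genes, 4 were called higher and 5 lower, near the 11.9% and 9.74% of all tested probe sets, with a median difference of -0.08. ACS3, an ACC synthase, was silent in INO-RolB fruit (4.67, 3.70 and 4.98), against 7.0, 7.83 and 7.53 in seeded wild-type fruit, at least 4.39-fold lower (-3.0 ± 0.50, adjusted p = 0.00135). A second ACC synthase gene, ACS1A, had 5.46, 5.40 and 5.67 in INO-RolB fruit, against 6.90, 7.0 and 6.23 in seeded wild-type fruit (-1.19 ± 0.34, adjusted p = 0.0246; call lost without any one of 4 arrays). By contrast ACS2 and ACS4, the ACC synthases of ripening, gave 0.27 ± 0.20 (adjusted p = 0.363) and 0.52 ± 0.30 (adjusted p = 0.245). CTR1 had 10.37, 10.13 and 10.48 in INO-RolB fruit, against 9.74, 9.78 and 9.74 in seeded wild-type fruit, 1.48-fold higher (0.57 ± 0.11, adjusted p = 0.00352). The receptor gene ETR5 fell by 0.76 ± 0.16 (adjusted p = 0.0056). Of the EIN3-like transcription factors, EIL2 fell by 1.06 ± 0.21 (adjusted p = 0.0034) and EIL3 fell by 0.45 ± 0.12 (adjusted p = 0.017; lost without either of 2 arrays), whereas EIL4 rose by 0.40 ± 0.10 (adjusted p = 0.011; 0.0534 without seeded replicate 3). The ethylene response factor JERF3 rose by 0.42 ± 0.10 (adjusted p = 0.0129), and ER1, described above, was the fourth rise. Only ACS3 and CTR1 of the 9 were called with the 5' minus 3' covariate.

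Abscisic acid is a hormone of seed maturation and drought, and TAS14 is a dehydrin that it induces. Of 6 genes on that list 1 was called in each direction, beside 11.9% higher and 9.74% lower of all tested probe sets. FLACCA, which activates the oxidase of the last synthesis step, had 9.21, 9.02 and 8.93 in INO-RolB fruit, against 9.82, 9.71 and 10.11 in seeded wild-type fruit, 1.77-fold lower (-0.82 ± 0.13, adjusted p = 0.00113). NCED1, the enzyme of the committed step, rose by 0.40 ± 0.12 (adjusted p = 0.0364), lost without any one of 5 arrays. TAS14 had 12.04, 10.09 and 11.39 in INO-RolB fruit, against 10.80, 9.99 and 10.58 in seeded wild-type fruit, overlapping levels (0.72 ± 0.56, adjusted p = 0.383). TAS14 and LEA14, a late embryogenesis gene at 13.04, 12.97 and 12.75 in INO-RolB fruit and 13.07, 13.17 and 12.94 in seeded wild-type fruit, were the only members of the seed list with a symbol here, and neither was called.

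Of 14 genes of the cell cycle, DNA replication and histones, 4 were called higher and 1 lower, beside 11.9% and 9.74% of all tested probe sets, and 1 of the 4, CDKB1, was silent in both groups. All 5 calls remained with the 5' minus 3' covariate. PCNA, the sliding clamp of DNA polymerase, had 8.65, 8.32 and 8.09 in INO-RolB fruit, against 7.13, 7.13 and 7.05 in seeded wild-type fruit. All INO-RolB arrays stood well above the seeded ones, a 2.38-fold rise (1.25 ± 0.19, adjusted p = 0.00069). P18, a dUTPase that keeps uracil out of DNA, had 7.88, 7.84 and 8.00 in INO-RolB fruit, against 6.70, 6.19 and 6.28 in seeded wild-type fruit, 2.87-fold higher (1.52 ± 0.31, adjusted p = 0.00466). The cyclin gene CycA3 rose by 0.26 ± 0.08 (adjusted p = 0.0332; not called without 5 of the 6 arrays). CDKB2, a kinase gene of the mitotic phase, was silent in INO-RolB fruit (4.98, 4.53 and 4.63) and barely above in seeded wild-type fruit (5.41, 5.43 and 6.04), with a difference of -0.92 ± 0.20 (adjusted p = 0.00633).

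MADS-box factors specify floral organs and fruit development, and 4 of the 7 measured were called higher in INO-RolB and none lower, beside 11.9% and 9.74% of all tested. MADS1 had 9.66, 9.57 and 9.73 in INO-RolB fruit, against 8.62, 8.76 and 8.38 in seeded wild-type fruit. Replicates were tight and the groups did not overlap, a 2.09-fold rise (1.07 ± 0.15, adjusted p = 0.000492). TDR6 had 9.50, 9.58 and 9.69 in INO-RolB fruit, against 8.80, 8.78 and 8.59 in seeded wild-type fruit (0.87 ± 0.14, adjusted p = 0.00121). TDR8 rose by 0.81 ± 0.13 (adjusted p = 0.00127) and TDR4, a FRUITFULL-type factor, by 0.46 ± 0.09 (adjusted p = 0.00344). All 4 calls held without any single array, and with the 5' minus 3' covariate TDR4 alone was no longer called (adjusted p = 0.0501). TAGL1 and RIN, regulators of ripening, gave 0.29 ± 0.17 (adjusted p = 0.253) and 0.09 ± 0.16 (adjusted p = 0.722), and TPI was silent in both groups.

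Of 11 ripening markers NOR, a NAC-type regulator of ripening, was called higher (0.69 ± 0.13, adjusted p = 0.00314) and the fruit expansin EXP1 lower (-0.29 ± 0.09, adjusted p = 0.0285; lost without any one of 4 arrays). The list's median difference was 0.09, and 11.9% and 9.74% of all tested probe sets were called higher and lower. All INO-RolB arrays lay above all seeded ones for 5 of the 11 markers and below for 2, beside 24.3% and 17% of all tested probe sets. Of 14 carotenoid and isoprenoid genes none was called in either direction, and differences ran from -0.35 to 0.22. Of 8 photosynthesis genes none was called, and the list's median was -0.39. All INO-RolB arrays lay below all seeded ones for 3 of the 8, beside 17% of all tested probe sets. The chlorophyll-binding protein gene CAB6A had 10.31, 9.80 and 10.81 in INO-RolB fruit, against 11.52, 10.89 and 11.21 in seeded wild-type fruit (-0.90 ± 0.36, adjusted p = 0.0897).

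Cell wall genes were called in both directions, 3 of 41 higher and 5 lower, near the 11.9% and 9.74% of all tested probe sets, with a median difference of -0.06. TBG2, a beta-galactosidase, had 8.29, 8.62 and 8.40 in INO-RolB fruit, against 9.70, 9.47 and 9.83 in seeded wild-type fruit, 2.35-fold lower (-1.23 ± 0.11, adjusted p = 1.27e-05). Its relatives TBG1 and TBG7 rose, by 0.66 ± 0.13 (adjusted p = 0.00369) and 1.01 ± 0.27 (adjusted p = 0.0187; lost without either of 2 arrays for TBG7). EXPA10, an expansin, had 6.29, 6.05 and 5.96 in INO-RolB fruit, against 7.86, 7.17 and 8.49 in seeded wild-type fruit, 3.33-fold lower (-1.74 ± 0.31, adjusted p = 0.00218). The endoglucanase CEL8 fell by 1.06 ± 0.24 (adjusted p = 0.00817) and the mannanase Man4 rose by 0.53 ± 0.17 (adjusted p = 0.0438), and Man4 lost its call without any one of 5 arrays. EXP1 was the fourth fall, and exp18 was silent in both groups. TBG2 alone of the 8 was called with the 5' minus 3' covariate.

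Sucrose and starch genes were called higher at 3 of 19 and lower at 1, near the 11.9% and 9.74% of all tested probe sets. AgpL1, a large subunit of the ADP-glucose pyrophosphorylase that feeds starch synthesis, had 8.28, 6.16 and 5.69 in INO-RolB fruit, against 4.96, 4.65 and 4.81 in seeded wild-type fruit. INO-RolB replicate 1 stood apart and all seeded arrays were silent, so the rise was at least 2.62-fold (1.90 ± 0.51, adjusted p = 0.0191; 0.054 without seeded replicate 3). The sucrose synthase gene sus3 had 12.53, 12.45 and 12.28 in INO-RolB fruit, against 11.88, 11.89 and 11.77 in seeded wild-type fruit, 1.49-fold higher (0.57 ± 0.11, adjusted p = 0.00335). SPS, sucrose-phosphate synthase, rose by 0.29 ± 0.06 (adjusted p = 0.00605). The cell wall invertase gene lin5 had 4.00, 6.67 and 4.58 in INO-RolB fruit, against 8.34, 6.66 and 9.75 in seeded wild-type fruit. INO-RolB replicate 2 thus reached the lowest seeded one, and lin5 was at least 5.58-fold lower (-3.17 ± 0.78, adjusted p = 0.0121; 0.0563 without seeded replicate 3).

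In the SnRK1 and 14-3-3 list 1 of 10 genes was called higher and 2 lower, beside 11.9% and 9.74% of all tested. Besides SNF4, the SnRK1 subunit gene GAL83 fell, with 7.89, 7.64 and 7.67 in INO-RolB fruit, against 9.14, 8.96 and 8.90 in seeded wild-type fruit, 2.41-fold lower (-1.27 ± 0.15, adjusted p = 0.000115). TFT7, a 14-3-3 protein gene, rose by 0.56 ± 0.11 (adjusted p = 0.00318). Both SnRK1 calls, SNF4 and GAL83, held without any single array and with the 5' minus 3' covariate (adjusted p = 0.000663 and 0.00555).

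Lipid genes were called higher at 2 of 21 and lower at 4, beside 11.9% and 9.74% of all tested probe sets. The lipid transfer genes TSW12 and ltpg1 were among those called lower. LOX1.1, a lipoxygenase, had 12.65, 12.84 and 13.00 in INO-RolB fruit, against 11.49, 11.82 and 10.82 in seeded wild-type fruit, 2.74-fold higher (1.45 ± 0.22, adjusted p = 0.000638). The lipoxygenase TomloxE rose by 1.22 ± 0.41 (adjusted p = 0.0463; lost without any one of 5 arrays). PLDb2, a phospholipase D, had 8.2, 7.72 and 8.17 in INO-RolB fruit, against 8.79, 9.89 and 8.95 in seeded wild-type fruit, 2.26-fold lower (-1.18 ± 0.27, adjusted p = 0.00905). The oxophytodienoate reductase gene opr2 gave -1.04 ± 0.26 (adjusted p = 0.014; 0.0669 without INO-RolB replicate 2), silent in INO-RolB fruit and close to the silent level in seeded wild-type fruit.

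Among 18 genes of amino acids, organic acids and polyamines 1 was called higher and 4 lower, beside 11.9% and 9.74% of all tested. AAP3, an amino acid permease, was silent in INO-RolB fruit (4.09, 4.19 and 4.20), against 6.4, 5.53 and 7.06 in seeded wild-type fruit, at least 2.02-fold lower (-2.17 ± 0.28, adjusted p = 0.000226). AAP2, a second amino acid permease, fell by 1.04 ± 0.30 (adjusted p = 0.0263; lost without any one of 5 arrays), and ADC, arginine decarboxylase of polyamine synthesis, by 0.46 ± 0.11 (adjusted p = 0.0101). The fourth was gad2, placed there by its symbol. The malate dehydrogenase gene cMDH rose by 1.46 ± 0.43 (adjusted p = 0.0278; lost without any one of 3 arrays). Beside 11.9% and 9.74% of all tested probe sets, 1 of 11 phenylpropanoid and flavonoid genes, ODD, was called higher and 3 lower. Besides CHS2 and THT1-3 these were DFR, dihydroflavonol reductase, silent in INO-RolB fruit (3.81, 4.12 and 4.37), against 6.33, 4.44 and 7.46 in seeded wild-type fruit (-1.98 ± 0.56, adjusted p = 0.0238; lost without any one of 4 arrays). CHS1, the second chalcone synthase, had 6.62, 8.66 and 7.31 in INO-RolB fruit, against 9.25, 7.96 and 10.23 in seeded wild-type fruit, overlapping levels (adjusted p = 0.0629).

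The remaining lists held few calls, to be read beside the 11.9% and 9.74% of all tested probe sets called higher and lower. IMP1, an inositol monophosphatase placed with membrane transport by its symbol, had 9.40, 9.69 and 9.19 in INO-RolB fruit, against 8.23, 8.42 and 8.24 in seeded wild-type fruit (1.13 ± 0.20, adjusted p = 0.00192), and with TIP made 2 rises among 16, beside 2 genes called lower. These were pip1 (-0.99 ± 0.33, adjusted p = 0.0439) and PT2, a phosphate transporter, which was silent on all 3 INO-RolB arrays and on 2 of the 3 seeded ones and so at least 1.24-fold lower (adjusted p = 0.0375). Each of those 2 calls was lost without any one of at least 5 arrays. Of 17 redox genes the glutathione peroxidase GPXle-2 rose by 0.37 ± 0.09 (adjusted p = 0.00931), MDHAR, which recycles ascorbate, rose by 0.66 ± 0.16 (adjusted p = 0.0123; lost without either of 2 arrays), and GLB2 fell. HSC80, a cytosolic chaperone, was the 1 gene called of 7 heat shock genes, at -0.27 ± 0.07 (adjusted p = 0.013). Of 8 MAP kinase cascade genes MAPKKKalpha fell by 0.61 ± 0.11 (adjusted p = 0.00178) and MPK3 by 1.5 ± 0.42 (adjusted p = 0.0237; lost without any one of 3 arrays). A second probe set of MPK3 gave -1.45 (adjusted p = 0.0264), while another, at 5.21 in INO-RolB and 5.30 in seeded wild type, was silent. The blue-light receptor gene CRY2 rose by 0.35 ± 0.11 (adjusted p = 0.0455; lost without any one of 5 arrays) and CUL4, a scaffold of ubiquitin ligases, fell by 0.31 ± 0.08 (adjusted p = 0.0124), of 9 light signalling genes. VAHOX1, a homeobox gene, rose by 0.92 ± 0.18 (adjusted p = 0.00335) and GRAS6 fell by 0.82 ± 0.19 (adjusted p = 0.00936), of 10 meristem and homeobox genes. Of 6 ribosome and translation genes RPS25 rose by 0.24 ± 0.08 (adjusted p = 0.0462) and RPL37 fell by 0.22 ± 0.07 (adjusted p = 0.0324), both lost without any one of at least 5 arrays.

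**Figure D3:**
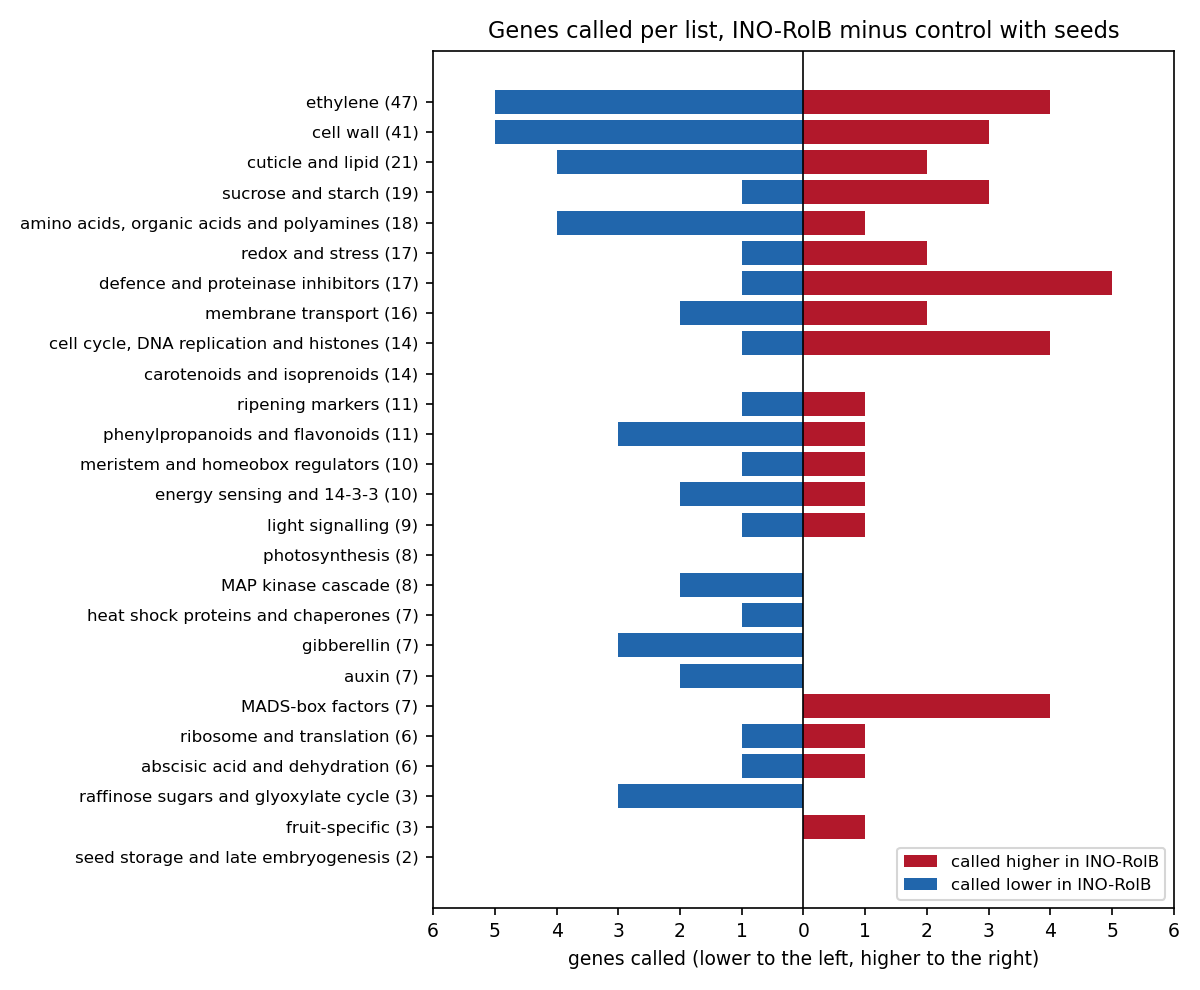
Number of genes called in the comparison of INO-RolB with seeded wild-type fruit for each gene list (number measured in brackets), called higher to the right in red and called lower to the left in blue. All 3 raffinose and glyoxylate genes lie to the left and 4 of 7 MADS-box genes to the right; no carotenoid or photosynthesis gene was called.

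Wild-type fruit with its seeds taken out gives a second group to set INO-RolB against, and both comparisons use the same INO-RolB arrays. The sample titles do not say whether the INO-RolB fruit held any seeds. Against it 487 probe sets were called higher (4.85%) and 541 lower (5.39%), together 10.2%, and 2780 (27.7%) had an unadjusted p under 0.05. Several genes with deep falls against the seeded group were not called against this one. GolS-1 had 4.63, 3.82 and 5.78 in INO-RolB fruit and 6.69, 4.91 and 7.95 in wild-type fruit without seeds (-1.77 ± 1.07, adjusted p = 0.312). CHS2 differed by -1.0 ± 0.63 (adjusted p = 0.334), SNF4 by -0.70 ± 0.30 (adjusted p = 0.15) and GLB2 by -0.34 ± 0.32 (adjusted p = 0.538). The 95% intervals, which run from -4.08 to 0.54 for GolS-1, from -2.35 to 0.36 for CHS2, from -1.35 to -0.06 for SNF4 and from -1.03 to 0.35 for GLB2, include falls beyond these estimates.

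Taken as a group without using the lines, 37 probe sets lay at least 2 units higher on the lowest seeded wild-type array than on the highest wild-type array without seeds, 8 of them with a symbol (AGAL, CHS2, DREB1, GLB2, GolS-1, SNF4, TSW12 and gad2). Their median level was 4.55, 4.08 and 6.08 on the INO-RolB arrays, against 5.57, 4.56 and 6.36 on the arrays without seeds and 9.70, 9.17 and 10.22 on the seeded arrays. It was 4.49 and 7.11 on the DefH9-RolB arrays and 3.98, 6.81 and 4.17 on the INO-IaaM arrays, so single arrays of these lines stood above the others. INO-RolB replicate 3 held the highest of the INO-RolB values for 29 of the 37, and replicate 1 and replicate 2 for 4 each. That choice fixes a high level on the seeded arrays and a low one on the arrays without seeds, so only the levels in the lines are read from it. Against wild-type fruit without seeds 1 of the 37 was called higher, beside 4.85% of all tested probe sets, and 0 lower, beside 5.39%. The low level required of the arrays without seeds made a lower call unlikely and favoured a higher one. These counts are therefore not read as a result. The 1 called higher was DREB1, a dehydration-responsive transcription factor gene (0.82 ± 0.21, adjusted p = 0.027, lost without any one of 3 arrays). The choice of probe sets favoured this call too, so it is not read as a result either. DREB1 had 8.84, 8.11 and 8.29 in INO-RolB fruit, against 7.45, 7.70 and 7.63 in wild-type fruit without seeds and 9.92, 10.00 and 10.22 in seeded wild-type fruit. The INO-RolB arrays lay between the wild-type groups, whose gap the choice had required.

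Several genes differed from both wild-type groups. ACS3 was silent in INO-RolB fruit, against 9.13, 7.59 and 7.17 in wild-type fruit without seeds, at least 6.25-fold lower (-3.51 ± 0.50, adjusted p = 0.00287). ACS1A differed from the fruit without seeds by -2.06 ± 0.34 (adjusted p = 0.00611). IAA3 had 10.08, 9.96 and 10.37 in INO-RolB fruit, against 11.54, 11.46 and 11.40 in the fruit without seeds (-1.33 ± 0.14, adjusted p = 0.000634). LOC544276 stood between the extremes in the fruit without seeds, at 9.96, 9.11 and 10.50, and INO-RolB differed from that by -2.99 ± 0.63 (adjusted p = 0.0134; up to 0.0518 without INO-RolB replicate 2 or replicate 3 of the fruit without seeds). PCNA rose by 1.09 ± 0.19 (adjusted p = 0.0065) and P18 by 1.60 ± 0.31 (adjusted p = 0.0103) against the fruit without seeds. Of 14 cell cycle genes 4 were called higher there, CDKB1, CycA3, P18 and PCNA, beside 4.85% of all tested probe sets. CDKB1 was silent in both groups and is not read as a change. LOX1.1 exceeded the fruit without seeds by 1.1 ± 0.22 (adjusted p = 0.0107). The difference of NP24-I, 1.01 ± 0.29 (adjusted p = 0.0403), was no longer called when any single array was left out (adjusted p up to 0.123). ODD, at least 3.69-fold higher (2.29 ± 0.42, adjusted p = 0.0077), and LOC543715, at least 2.46-fold higher (1.77 ± 0.33, adjusted p = 0.0086), also exceeded the fruit without seeds, as did AgpL1 (1.74 ± 0.51, adjusted p = 0.0466) and TPRP-F1 (1.91 ± 0.56, adjusted p = 0.0468). Each of the last 2 calls was lost without any one of 5 arrays.

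Other genes called against seeded wild-type fruit were not called against the fruit without seeds. MADS1 and TDR8 differed from it by 0.19 ± 0.15 (adjusted p = 0.462) and -0.02 ± 0.13 (adjusted p = 0.952), and no MADS-box gene was called there. GluB had 9.75, 11.09 and 10.69 in wild-type fruit without seeds, levels that overlap those of INO-RolB (0.14 ± 0.72, adjusted p = 0.921). IMP1 gave 0.06 ± 0.20 (adjusted p = 0.866), EIL2 -0.15 ± 0.21 (adjusted p = 0.68) and FLACCA 0.06 ± 0.13 (adjusted p = 0.812). Whether the difference from the seeded group exceeds that from the seedless one was not tested for these genes.

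The largest named differences against wild-type fruit without seeds included genes that differed less, or with overlap, from the seeded group. TAS14, the dehydrin, had 12.04, 10.09 and 11.39 in INO-RolB fruit, against 8.79, 7.83 and 9.47 in wild-type fruit without seeds. Its rise of 5.58-fold (2.48 ± 0.56, adjusted p = 0.017) was the largest among named genes there, with INO-RolB replicate 2 the lowest of its group, and it was not called without INO-RolB replicate 1 (adjusted p = 0.0612). The invertase lin5 was at least 6.88-fold lower (-3.47 ± 0.78, adjusted p = 0.0169; up to 0.06 without replicate 1 of either group), with 8.69, 8.46 and 8.51 in the fruit without seeds. CBF1, a transcription factor gene of the cold response, had 9.15, 8.31 and 9.93 in INO-RolB fruit, against 11.81, 11.82 and 11.40 in wild-type fruit without seeds and 11.52, 11.58 and 11.09 in seeded wild-type fruit. CBF1 differed by -2.54 ± 0.55 from the fruit without seeds (adjusted p = 0.0146) and by -2.26 ± 0.55 from the seeded fruit (adjusted p = 0.0117). Without INO-RolB replicate 2 the adjusted p values were 0.0681 and 0.0571. The gene yfe37 was at least 4.49-fold lower than in the fruit without seeds (-2.33 ± 0.41, adjusted p = 0.00705).

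**Figure D4:**
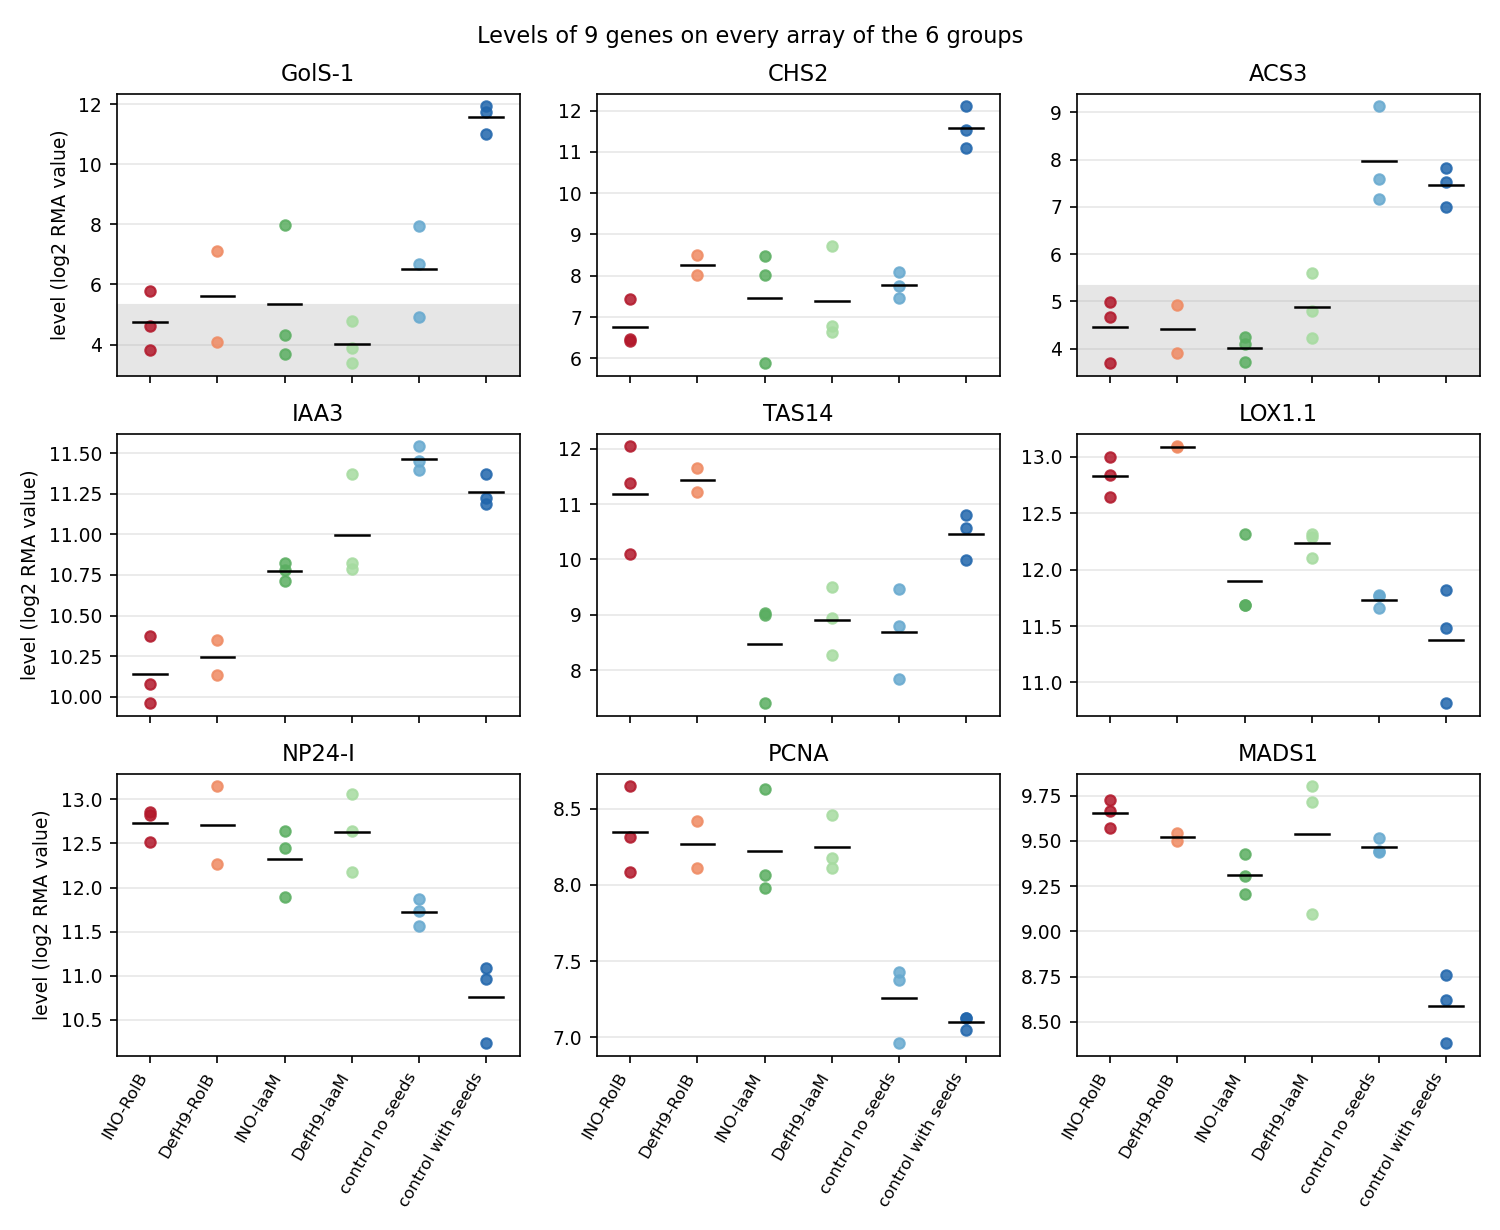
Level on every array (log2 RMA value, axes not starting at 0) of 9 genes in the 6 groups, INO-RolB at the left and seeded wild-type fruit at the right, with a black line at each group's mean and the silent range in grey. GolS-1 and CHS2 are higher on the seeded arrays than on the INO-RolB arrays and the arrays without seeds. ACS3 is silent on the INO-RolB arrays and at 7.0 to 9.13 on the wild-type arrays. For IAA3 and LOX1.1 the INO-RolB arrays lie apart from both wild-type groups.

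Set against DefH9-RolB, the same transgene under the other promoter, limma called 0 probe sets (0%) in either direction, with 391 (3.9%) at an unadjusted p under 0.05. The smallest adjusted p was 0.916 and the median 95% interval, unadjusted, reached 0.34 to either side, and with 3 and 2 arrays larger differences than that also went uncalled. GLB2 had 5.44, 5.07 and 6.11 in INO-RolB fruit, against 7.60 and 6.80 in DefH9-RolB fruit, an uncalled difference of -1.66 ± 0.36. ODD had 6.83, 7.80 and 7.10 in INO-RolB fruit, against 5.94 and 6.10 in DefH9-RolB fruit (1.22 ± 0.46, not called). IAA3 had 10.13 and 10.35 in DefH9-RolB fruit, within the INO-RolB range, and ACS3 was silent at 4.93 and 3.91.

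Set against INO-IaaM, the other transgene under the same promoter, limma again called 0 probe sets (0%), with 1086 (10.8%) at an unadjusted p under 0.05 and a smallest adjusted p of 0.114. The spike measure given above differs between these groups too. TAS14 had 12.04, 10.09 and 11.39 in INO-RolB fruit, against 8.99, 9.03 and 7.41 in INO-IaaM fruit, so no array overlapped, with a difference of 2.70 ± 0.56 (adjusted p = 0.171). IAA3 had 10.08, 9.96 and 10.37 in INO-RolB fruit, against 10.82, 10.78 and 10.71 in INO-IaaM fruit (-0.64 ± 0.14, adjusted p = 0.171). LOX1.1 had 12.65, 12.84 and 13.00 in INO-RolB fruit, against 12.32, 11.69 and 11.69 in INO-IaaM fruit (0.93 ± 0.22, adjusted p = 0.171). AgpL1 lay at 8.28, 6.16 and 5.69 in INO-RolB fruit, against 5.45, 4.99 and 4.94 in INO-IaaM fruit (1.58 ± 0.51, adjusted p = 0.305), and GP1 was higher in INO-RolB by 1.86 ± 0.54 (adjusted p = 0.241). None of these genes, chosen after their values were seen, passed the threshold. For the 12 largest falls against seeded wild type, differences from INO-IaaM ran from -0.75 to 0.56 (median -0.14), and 0 intervals excluded 0. For the 12 largest rises they ran from -0.30 to 1.86 (median 0.30), and 3 intervals excluded 0. Among the 47 ethylene genes, ACS3 included, the lowest difference from INO-IaaM was -0.66. The intervals do not show that the lines act alike.

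**Figure D5:**
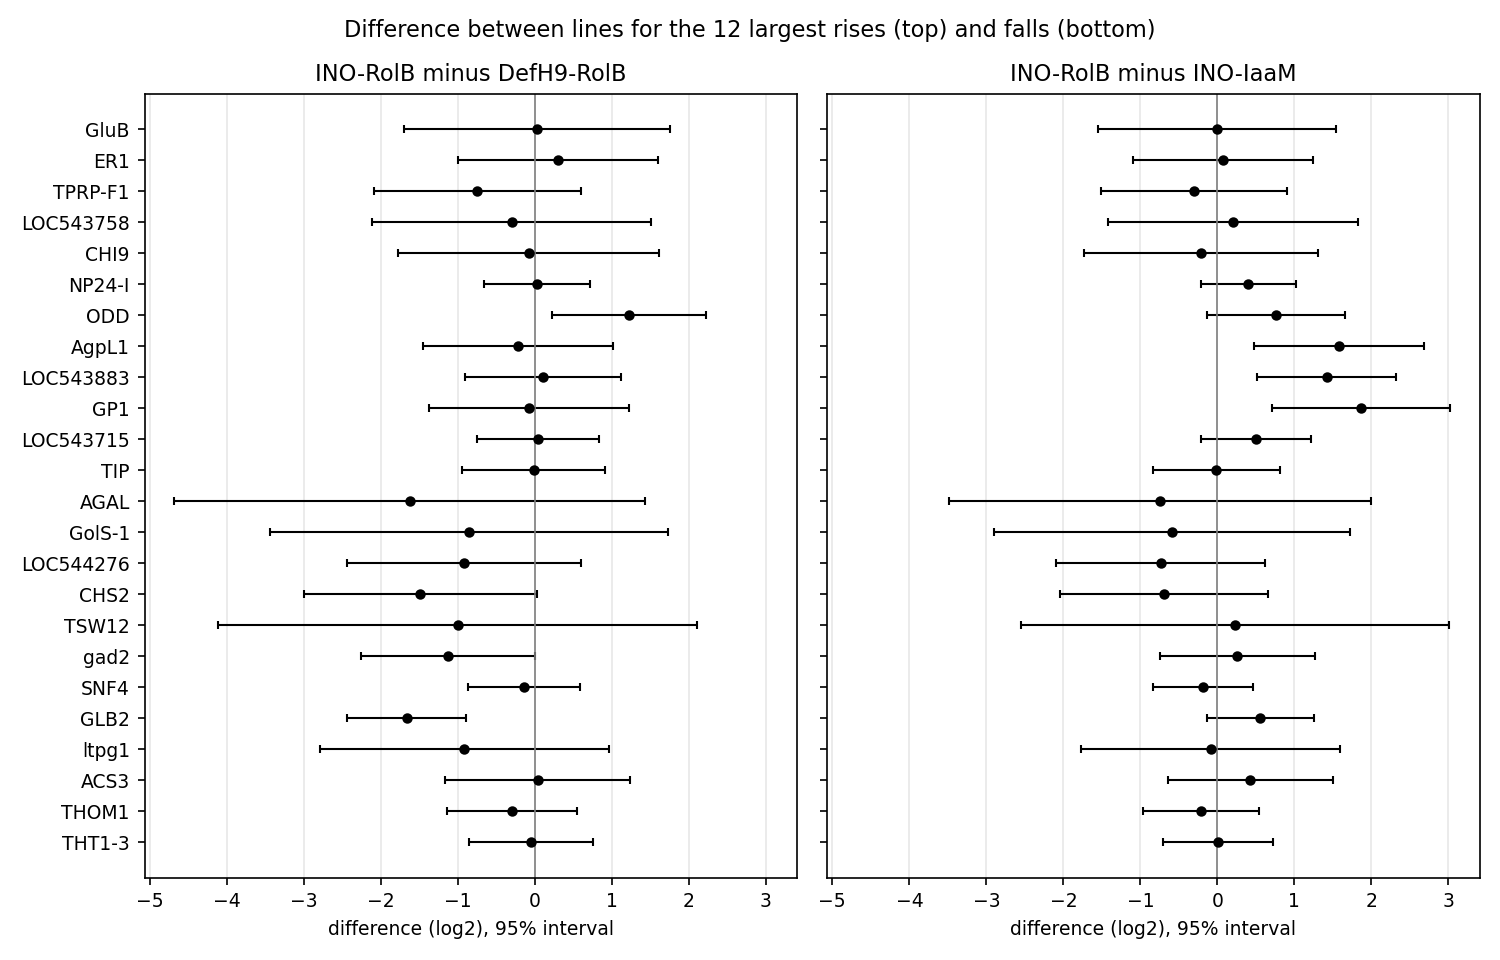
Difference (log2) of INO-RolB from DefH9-RolB (left) and from INO-IaaM (right) for the 12 largest rises and 12 largest falls against seeded wild type, as points with 95% intervals. No difference was called; the widest intervals, for AGAL and TSW12, reach up to 3.11 to either side.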

How the data were processed

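Levels are log2 values made by the authors with RMA, per the submitters' processing notes, which give no version. RMA corrects background, puts all arrays on 1 distribution and summarises the probes of a set, so a shift shared by most transcripts would not show. Each group's RNA was extracted with hot borate and biotin-labelled in 1 cycle, per the labels' protocols. The values were used as deposited, with 108 AFFX and 63 RPTR probe sets left out, and 10038 were tested without a filter on low values.

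limma 3.58.1 (R 4.3.3; lmFit and eBayes) gave every group of all 17 arrays its own mean, with 11 residual degrees of freedom, and Benjamini-Hochberg adjustment over the 10038. Tables were joined with pandas 2.3.3. In simulated data with independent normal noise the fit called 23 of 67 changes of 0.5, 56 of 67 changes of 1 and 63 of 66 changes of 2. The simulation held no shift of RNA integrity or spikes between groups, so it does not check for such shifts. With arrays, the number of replicates limits the precision.

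Symbols come from the platform annotation, which can be old. RefSeq (SLM_r2.1) was used for names and neighbours alone, and 786 of the 803 genes matched. The brightest probe set stands for a gene, and related genes may share probes, which was not tested. Gene lists, 23 plus 3 added after the symbols were read, were matched by symbol because the annotation holds no descriptions. Comparisons, members and lists were chosen with earlier results of these data known. Named are the 12 largest rises and falls whose arrays do not overlap and which are not silent in both groups, up to 3 called members per list by smallest adjusted p, and the 5 largest each way against the other groups. Further called genes and the uncalled ones are list members chosen after their values were seen.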

Additional observations from a re-analysis of the deposited data

Results flagged for a closer look

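Data outside the comparison held 4 signals that set INO-RolB apart from wild type, though not from all other lines. The reporter probe set U57609-2 had 9.21, 8.45 and 7.14 in INO-RolB (mean 8.27), against at most 4.09 on the wild-type arrays. The reporter probe set A00196-1 had 9.95, 10.34 and 7.82 in INO-RolB (mean 9.37), against at most 4.36 on the wild-type arrays. In INO-IaaM U57609-2 averaged 10.62 and A00196-1 10.78. DefH9-RolB replicates 1 and 2 had 9.48 and 9.62 for U57609-2, but 3.93 and 10.83 for A00196-1. Replicate 1 of DefH9-RolB thus lay at the wild-type level for A00196-1, and what this means for that array was not tested. Values of the remaining 61 reporters ran from 2.45 to 5.49 over the 17 arrays. The spike difference BioC minus BioB had a mean of 1.32 in INO-RolB and 1.30 in DefH9-RolB. It was 0.81 in seeded wild type and 0.82 in wild type without seeds. The 5' minus 3' signal had a mean of -0.43 in INO-RolB and -0.37 in DefH9-RolB. It was -0.74 in seeded wild type and -0.69 in wild type without seeds. Groups of 3 arrays were not tested for single outlying arrays.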

How the results depend on the processing

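The comparison with seeded wild type gave 1198 rises and 978 falls. With array weights it gave 1904 rises, with the 5' minus 3' covariate 336 and 370 falls, with the BioC minus BioB covariate 0 and 0 (728 at an unadjusted p under 0.05), at an adjusted p under 0.01 423 and 460, and with a difference of at least 1 182 and 340. Without 1 array at a time rises ranged from 607 to 1045 and falls from 577 to 876. Against wild type without seeds (487 and 541), the 2 groups alone gave 239 and 351, weights 916 rises, the 5' minus 3' covariate 90 and 122, the BioC minus BioB covariate 0 and 0, the stricter p 58 and 92, the difference of at least 1 83 and 159, and single omissions 118 to 420 rises and 167 to 413 falls. Against DefH9-RolB single omissions gave 0 rises and 0 to 6 falls. Against INO-IaaM they gave 0 to 5 rises and 0 to 1 falls, the 2 groups alone 1 rise, weights 1 fall and the 5' minus 3' covariate 1 of each.

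The spike covariate turned the sign of 18 values. Against wild type without seeds they were CBF1 2.40 and yfe37 2.19. Against seeded wild type they were PT2 0.32, ADC 0.71, LOC543883 -4.04, GP1 -1.73, NOR -0.40, FLACCA 0.094, PLDb2 1.99, SPS -0.0011, P18 -1.53, ACS3 0.12, CHS2 1.34, ODD -0.021, GRAS6 0.98, MAPKKKalpha 0.64, TIP -2.16 and MPK3 2.04. This covariate barely varies within a group and widened the median standard error 5.6-fold, the 5' minus 3' covariate 1.29-fold. Of the 66 genes named by rule, 48 kept their call without any single array and 31 with the 5' minus 3' covariate. Of the 10 named against wild type without seeds, 4 and 5 did so, and CBF1 (adjusted p = 0.0885), lin5 (0.0871) and LOC544276 (0.1) were not called with that covariate. In a fit of the 2 compared groups alone, 57 of the 66 and 7 of the 10 kept their call. Replicate numbers were not taken to pair the arrays, because no label says that same-numbered arrays share plants. Deviations of same-numbered arrays correlated at -0.16, 0.13 and -0.03 between INO-RolB and seeded wild type, -0.02, 0.35 and 0.28 with wild type without seeds, 0.37 and -0.06 with DefH9-RolB, and 0.05, -0.14 and -0.28 with INO-IaaM. These mixed values do not settle whether the numbers pair the arrays. With a replicate block the counts were 1122 and 910 against seeded wild type and 420 and 470 against wild type without seeds. Other normalizations and filters kept both counts within 1.5 times. Signals in the silent range limit what can be read of low genes.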
